A study of Homo sapiens with 2 samples.

Results

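The 43 chromatin regulators of neurodevelopment described here are genes that add, remove or read marks on histones and DNA or that move nucleosomes, chosen by name from the 62704 genes counted in both libraries. All 43 were found by gene name, and all were above 5 CPM (counts of a gene per 1000000 counts) over the kept barcodes of both libraries. They comprise 6 Polycomb genes, 7 genes of the BAF complex, 2 ISWI ATPases, 9 CHD ATPases, 10 histone methyltransferases, 2 acetyltransferases, 2 histone demethylases and 5 genes of DNA methylation.

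The RNA came from cerebral organoids, brain-like tissue grown from the human embryonic stem cell line H9 alone, and was counted by split-seq, in which fixed cells or nuclei are labeled by successive rounds of well barcodes. The library of cells held control organoids (CO) of days 45, 55 and 70, organoids dissociated at day 45 and allowed to reaggregate (DISS) of days 48, 55 and 70, and organoids taken out of Matrigel at day 13 and held in 3% agarose (CONS) of day 55. The library of nuclei held CO of day 45, as whole organoids and as suspensions. All barcodes of a library carry the same sample name, so that each library was 1 sample, conditions and days were not compared, and no test between groups was possible.

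Polycomb repressive complex 2 places a repressive methyl mark on lysine 27 of histone H3, whereas BAF, ISWI and CHD complexes use ATP to move or evict nucleosomes. Several of these complexes are built from alternative paralogs, and in the developing cortex some subunits used by dividing neural progenitors are replaced by others as neurons form. Mutations in many of these genes cause neurodevelopmental disorders, including CHARGE syndrome for CHD7 and Coffin-Siris syndrome for BAF genes.

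The barcodes used had over 1000 transcripts from over 500 genes and a mitochondrial share of no more than 20%, which left 20178 cells (median 2615 transcripts) and 14228 nuclei (median 3890). Each barcode was thinned to 1000 transcripts and called progenitor-marker when at least 3 of 18 progenitor markers were detected and at least 3 times as many as neuron markers, and neuron-marker by the reverse rule. There were 3026 progenitor-marker and 4598 neuron-marker cells, and 3753 progenitor-marker and 3960 neuron-marker nuclei. Neither rule was met by 55% of cells and 42.4% of nuclei, and those with choroid plexus or intermediate progenitor markers were set apart. The summed level of the 18 progenitor markers in neuron-marker barcodes was 1789 CPM in cells and 1163 CPM in nuclei, against 5242 and 5197 CPM in progenitor-marker barcodes, and PTPRZ1 was the marker that least separated the cells (728 and 729 CPM). Neuron-marker cells also held more RNA of division genes than neuron-marker nuclei, since 29.9% of the former and 7.85% of the latter had at least 2 such markers. Barcodes of 10 to 100 transcripts were taken to show free RNA, though what they hold was not tested. Progenitor markers were at 3108 CPM in those of cells and 2672 CPM in those of nuclei, and the part of free RNA in the levels given here was not tested. The deepest 1% of barcodes carried 20.2% of the counts in cells and 7.5% in nuclei, and 99 barcode names occurred in both libraries. Summed markers of microglia, endothelium, mesenchyme and pluripotent cells were each at or below 9.03 CPM in the progenitor- and neuron-marker classes of both libraries. Those of astrocytes reached 11.8 CPM, those of the oligodendrocyte lineage 22.9 CPM with OLIG1 and OLIG2 near 0, and those of the inhibitory lineage 51.3 CPM in neuron-marker nuclei and 21.7 CPM in neuron-marker cells. The 11 choroid plexus markers summed to 1029 CPM in progenitor-marker and 583 CPM in neuron-marker cells, and to 302 and 328 CPM in nuclei.

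Of the 43 members, 6 were at least 1.5-fold higher in progenitor-marker than in neuron-marker barcodes of both libraries, namely EZH2, SUZ12, SMARCA1, NSD2, DNMT1 and TET1. Another 4, SMARCA2, CHD3, CHD5 and KDM6B, were at least 1.5-fold higher in neuron-marker barcodes of both. These shares (14% and 9.3%) were close to those of all 12663 genes tested in both libraries, 14.4% and 10.7%. Of all members, 69.8% had a log2 ratio above 0 in cells and 74.4% in nuclei, beside 54.2% and 61.8% of all genes tested. In cells alone 6 members were higher and 4 lower, against 15.0% and 12.0% of 14307 genes. In nuclei alone 12 were higher and 4 lower (27.9% and 9.3%), against 25.1% and 16.1% of 12793 genes. The median gene of the nuclei had a log2 ratio of 0.17, and relative to it 9 members were higher and 5 lower, against 19.6% and 20.3% of genes. At 2-fold, 0 members were higher and 2 lower in progenitor-marker cells (7.33% and 5.85% of genes), and 4 were higher and 4 lower in nuclei (14.6% and 10.4%). The median log2 ratio of the members was 0.18 in cells and 0.30 in nuclei, against 0.044 and 0.17 for all genes tested.

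Levels are pooled CPM over all barcodes of a class, with 95% exact Poisson intervals that cover counting error only. Spread is given between sub-libraries (8 of cells and 2 of nuclei), which is technical. It is also given between barcoding wells with at least 20 barcodes of each class, and the condition of a well is unknown. These were 30 of the 48 wells of cells and all 12 wells of nuclei, and counts of wells below refer to them. Sub-libraries are aliquots of the same pool of barcoded cells, and neither spread is known to be one between organoids.

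**Figure D1:**
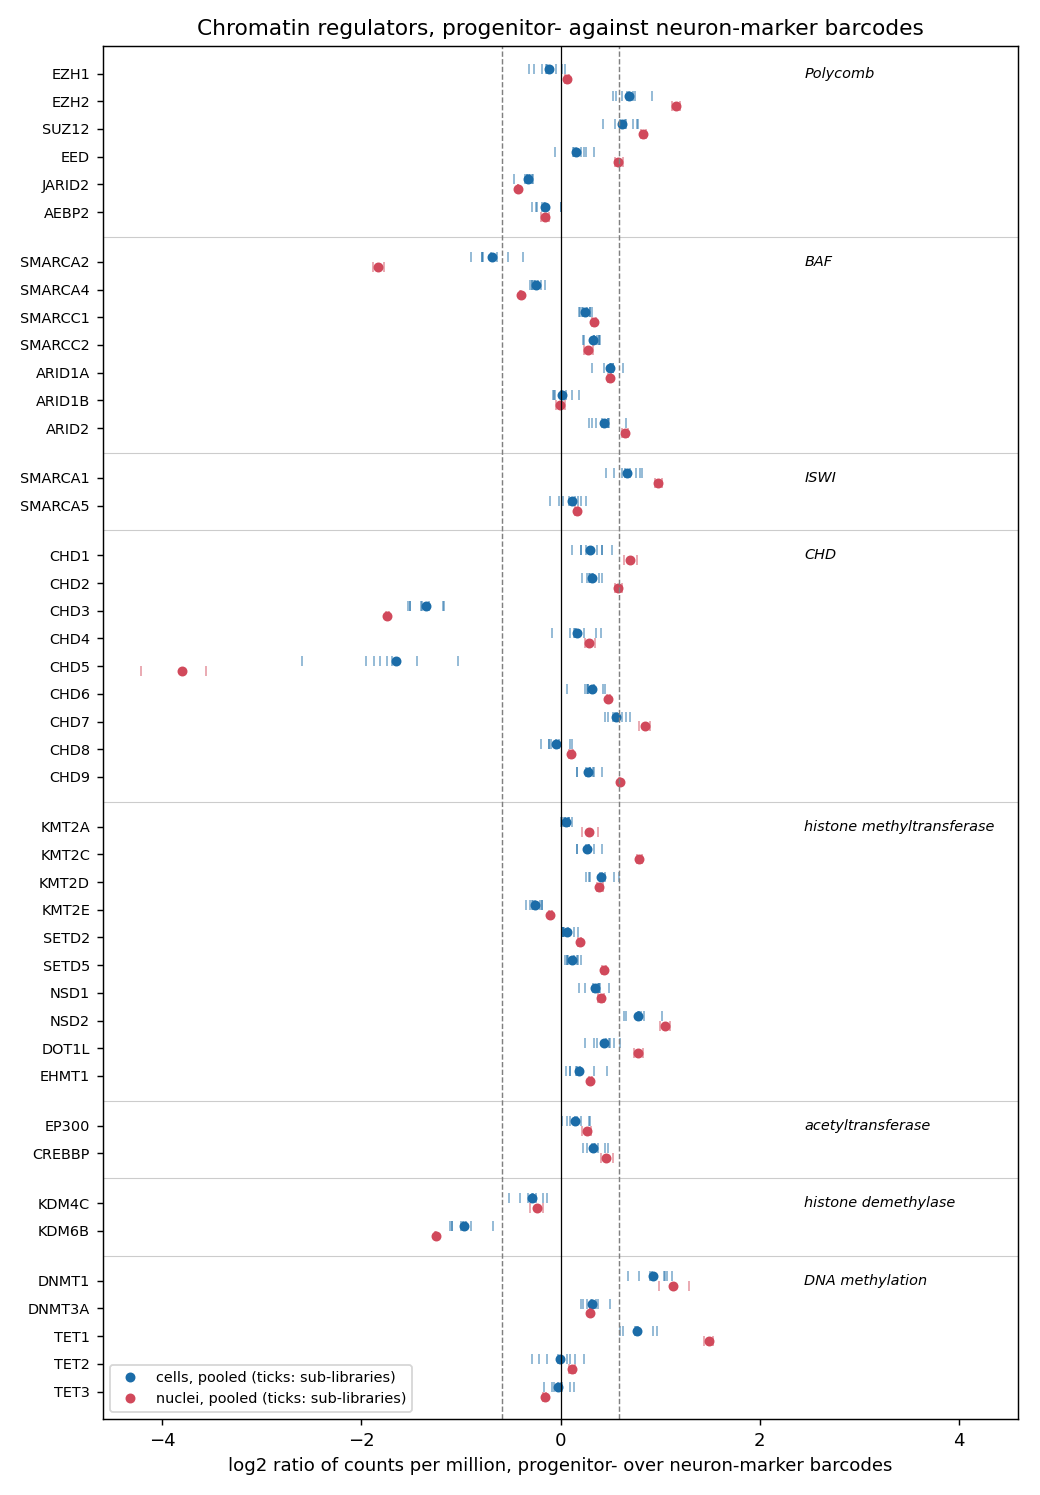
Log2 ratio of pooled CPM in progenitor- over neuron-marker barcodes for the 43 members (rows, by complex), with dots for pooled cells and nuclei, ticks for sub-libraries and dashed lines at 1.5-fold. The ratios spread from -1.65 to 0.93 in cells and from -3.80 to 1.49 in nuclei, and CHD3, CHD5, SMARCA2 and KDM6B stand apart on the neuron side in both.

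Among the Polycomb genes, the catalytic subunit EZH2 and the core subunit SUZ12 were higher in progenitor-marker barcodes of both libraries, and no Polycomb gene was 1.5-fold higher in neuron-marker barcodes, except JARID2 in nuclei when taken relative to the median gene. EZH2 was at 311 CPM (interval 304 to 318) in progenitor-marker and 193 CPM (189 to 198) in neuron-marker cells, a log2 ratio of 0.69 with sub-libraries from 0.53 to 0.92. In nuclei its levels were 316 and 142 CPM, a log2 ratio of 1.16 with sub-libraries at 1.12 and 1.21. It was higher in the progenitor class of all 30 wells of cells and all 12 wells of nuclei. SUZ12 was at 135 and 88.2 CPM in cells (log2 ratio 0.62, sub-libraries 0.43 to 0.78) and at 114 and 63.9 CPM in nuclei (0.83), again higher in 30 wells of cells and 12 wells of nuclei. The call for EZH2 was lost under 4 of 15 alternatives in cells, with a lowest value of 0.21, and under 2 in nuclei, with a lowest value of 0.30, and both lowest values came from progenitor-marker barcodes without a division marker. The call for SUZ12 in cells was lost under 5 of 15 alternatives, with a lowest value of 0.48 and a value of 0.57 relative to the median gene. EZH1, the other H3K27 methyltransferase, had log2 ratios of -0.12 in cells and 0.063 in nuclei, with sub-libraries of cells on both sides of 0. The core subunit EED was at 0.16 in cells and, just short of 1.5-fold, at 0.58 in nuclei. The accessory subunits JARID2 (-0.33 and -0.43) and AEBP2 (-0.16 in both) lay on the neuron side without reaching 1.5-fold, and relative to the median gene JARID2 in nuclei did reach it, at -0.61. The median log2 ratio of the 6 genes was 0.021 in cells and 0.32 in nuclei. It ran from -0.023 to 0.25 over the alternatives in cells and from 0.15 to 0.46 in nuclei.

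Among the BAF genes, the ATPase SMARCA2 (BRM) was higher in neuron-marker barcodes, and its paralog SMARCA4 (BRG1) lay on the same side with a smaller ratio. SMARCA2 was at 101 CPM (96.8 to 105) in progenitor-marker and 163 CPM (159 to 167) in neuron-marker cells, a log2 ratio of -0.69 that went below 1.5-fold under 4 alternatives, the smallest at -0.56. In nuclei it was at 84.2 and 300 CPM, 3.56-fold higher in neuron-marker barcodes (log2 ratio -1.83). Its neuron-side direction held in 27 of 30 wells of cells and in all 12 wells of nuclei. SMARCA4 was at 318 and 377 CPM in cells (log2 ratio -0.25) and at 225 and 297 CPM in nuclei (-0.40). The scaffold subunits SMARCC1 (0.24 and 0.34) and SMARCC2 (0.33 and 0.28) and ARID1A (0.50 in both), the DNA-binding subunit of canonical BAF, were on the progenitor side without reaching 1.5-fold. ARID1B, its alternative, was level between the classes (0.011 in cells and -0.0040 in nuclei). ARID2, the corresponding subunit of PBAF, reached 1.5-fold only in nuclei (0.43 in cells and 0.64 in nuclei), and not relative to the median gene there (0.47). The median log2 ratio of the 7 genes was 0.24 in cells (0.048 to 0.29 over the alternatives) and 0.28 in nuclei (0.091 to 0.32).

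Of the ISWI ATPases, SMARCA1 (SNF2L) was higher in progenitor-marker barcodes and SMARCA5 (SNF2H) did not reach 1.5-fold. SMARCA1 was at 167 CPM (162 to 172) and 105 CPM in progenitor- and neuron-marker cells, a log2 ratio of 0.67, and higher in all 30 wells. In nuclei the levels were 189 and 95.9 CPM, a log2 ratio of 0.98 that was positive in all 12 wells. SMARCA1 was higher still in choroid plexus-marker barcodes (237 CPM in cells and 323 CPM in nuclei), whose markers were higher in the progenitor class of cells and not of nuclei, as given above, and their part in the ratio in cells was not tested. SMARCA5 was at 140 and 130 CPM in cells (log2 ratio 0.11) and at 96.3 and 86.0 CPM in nuclei (0.16).

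Of the CHD genes, the NuRD ATPases CHD3 and CHD5 were higher in neuron-marker barcodes of both libraries, and no CHD gene was 1.5-fold higher in progenitor-marker cells. CHD3 was at 151 CPM (147 to 156) in progenitor-marker and 386 CPM (379 to 392) in neuron-marker cells, 2.55-fold higher in the latter (log2 ratio -1.35, sub-libraries -1.53 to -1.17). In nuclei the levels were 104 and 348 CPM, a 3.35-fold difference (-1.74). The direction was the same in all 30 and all 12 wells. CHD5, known as the neuronal NuRD ATPase, was the scarcest member, with 198 counts (8.27 CPM) in progenitor-marker and 956 counts (26.0 CPM) in neuron-marker cells, a log2 ratio of -1.65. In nuclei it had 61 counts (3.70 CPM) and 1021 counts (51.7 CPM), a log2 ratio of -3.80. CHD5 was lower in the progenitor class of 29 of 30 wells of cells and all 12 wells of nuclei. CHD4, the third NuRD ATPase, was at 255 and 227 CPM in cells (log2 ratio 0.17) and at 145 and 118 CPM in nuclei (0.29). CHD7, the gene of CHARGE syndrome, was at 658 and 446 CPM in cells, just short of 1.5-fold (0.56), and at 638 and 354 CPM in nuclei (0.85). CHD8, often mutated in autism, had ratios of -0.047 in cells and 0.11 in nuclei. CHD1 (0.70) and CHD9 (0.59) passed 1.5-fold in nuclei only, and not relative to the median gene there (0.52 and 0.42), CHD2 was just short of it there (0.58), and CHD6 was at 0.31 in cells and 0.48 in nuclei. The median log2 ratio of the 9 genes was 0.28 in cells (0.22 to 0.32 over the alternatives) and 0.48 in nuclei (0.31 to 0.60).

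Among the histone methyltransferases, NSD2, which dimethylates H3K36, was higher in progenitor-marker barcodes of both libraries. NSD2 was at 448 CPM (439 to 456) and 261 CPM (256 to 267) in progenitor- and neuron-marker cells, a log2 ratio of 0.78, and higher in 29 of 30 wells. In nuclei it was at 473 and 229 CPM, a log2 ratio of 1.05 with all 12 wells on the progenitor side. Its call was lost without division-marker progenitors, at 0.20 in cells and 0.45 in nuclei. Its paralog NSD1 was at 0.34 in cells and 0.40 in nuclei. KMT2C, an H3K4 methyltransferase, and DOT1L, the H3K79 methyltransferase, passed 1.5-fold in nuclei (0.79 and 0.78) and not in cells (0.27 and 0.43). The other 6 (KMT2A, KMT2D, KMT2E, SETD2, SETD5 and EHMT1) ranged from -0.26 for KMT2E to 0.41 for KMT2D in cells and from -0.11 for KMT2E to 0.44 for SETD5 in nuclei. The acetyltransferases EP300 (log2 ratio 0.14 in cells and 0.26 in nuclei) and CREBBP (0.33 and 0.46) were on the progenitor side without reaching 1.5-fold.

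The H3K27 demethylase KDM6B, which removes the mark that EZH2 places, was higher in neuron-marker barcodes. It was at 78.3 CPM (74.8 to 81.9) in progenitor-marker and 153 CPM (149 to 157) in neuron-marker cells, 1.95-fold higher in the latter (log2 ratio -0.97), in 28 of 30 wells. In nuclei it was at 49.4 and 118 CPM, a 2.38-fold difference (-1.25) present in all 12 wells. KDM4C, a demethylase of H3K9 and H3K36, was at -0.28 in cells and -0.24 in nuclei.

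Of the DNA methylation genes, the maintenance methyltransferase DNMT1 and the 5-methylcytosine oxidase TET1 were higher in progenitor-marker barcodes. DNMT1 was at 217 CPM (211 to 223) and 114 CPM (111 to 118) in progenitor- and neuron-marker cells (log2 ratio 0.93, higher in 28 of 30 wells) and at 166 and 76.3 CPM in nuclei (1.13, all 12 wells). TET1 was at 256 CPM (250 to 263) and 150 CPM (147 to 154) in cells (0.77, 28 of 30 wells) and at 226 and 80.4 CPM in nuclei (1.49, all 12 wells), where it had the highest ratio of the 43. TET1 kept its call under all 15 alternatives in both libraries, whereas DNMT1 lost it in both under the 2 that left out barcodes with a division marker, with lowest values of -0.025 in cells and 0.090 in nuclei. The de novo methyltransferase DNMT3A was at 154 and 124 CPM in cells (0.32) and at 176 and 144 CPM in nuclei (0.29). TET2 (-0.0078 in cells and 0.12 in nuclei) and TET3 (-0.024 and -0.16) did not share the ratio of TET1, and their sub-libraries of cells fell on both sides of 0.

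**Figure D2:**
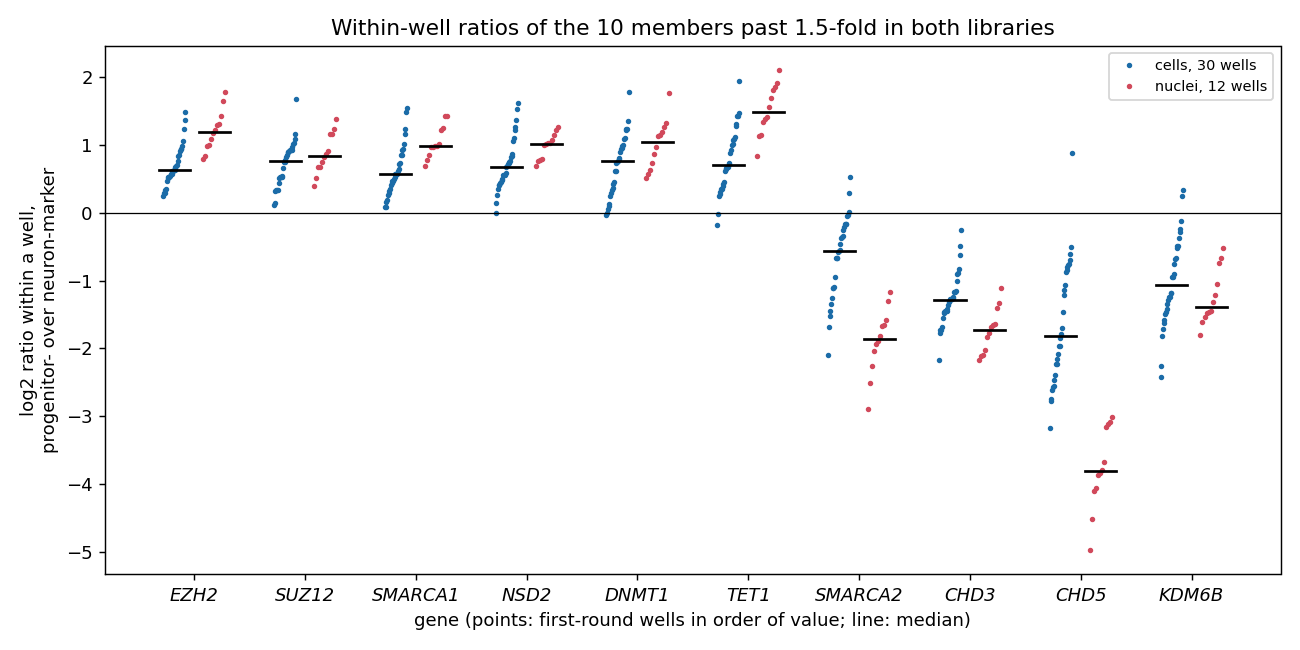
Log2 ratio of progenitor- over neuron-marker barcodes within each barcoding well (points, 30 wells of cells and 12 of nuclei, in order of value) for the 10 members past 1.5-fold in both libraries, with the median as a line. EZH2, SUZ12, SMARCA1 and CHD3 keep their side of 0 in every well, whereas SMARCA2 has 3 of 30 wells of cells on the progenitor side.

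All 10 members past 1.5-fold in both libraries had the larger ratio in nuclei, as did 93.5% of the 3173 genes past 1.5-fold in the same direction in both. That difference was not tested, and since the libraries differ in day, condition, kit, sequencing depth and RNA fraction, these cannot be told apart. Per the methods, the authors removed RNA contamination from the counts of cells and not from those of nuclei. The counts used here are uncorrected in both. The ratios of the summed neuron markers also differed, with 1581 CPM in progenitor-marker and 6648 CPM in neuron-marker cells against 1143 and 8498 CPM in nuclei, and their part in the result was not tested.

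Between dividing and non-dividing progenitor-marker barcodes, 3 members differed by at least 1.5-fold in both libraries. Smaller differences of other members are not described. Barcodes with at least 2 of the S phase or G2/M markers were called dividing and those with 0 non-dividing. The rule for dividing was met by 64.6% of progenitor-marker cells and 56.1% of progenitor-marker nuclei. It was also met by 29.9% of neuron-marker and 37.5% of choroid plexus-marker cells, and by 7.85% and 19.6% of such nuclei. In the barcodes taken to show free RNA, S phase and G2/M markers summed to 1082 and 1546 CPM in cells. In nuclei these sums were 1298 and 1373 CPM. The part of free RNA in the calls of division was not tested. EZH2, NSD2 and DNMT1 were at least 1.5-fold higher in dividing than in non-dividing progenitor-marker barcodes of both libraries, and no member was 1.5-fold lower. Beside these 3 of 43, 4.70% of the 12663 genes tested in both libraries were higher and 3.36% lower. Within a library, 6.73% of genes were higher and 8.56% lower in cells, and 9.50% and 10.6% in nuclei. At 2-fold, DNMT1 was the member higher in cells (2.82% of genes), and DNMT1 and EZH2 were higher in nuclei (4.33%). DNMT1 was highest in S phase, when newly made DNA is methylated, with 112, 332 and 200 CPM in non-dividing, S and G2/M cells and 81.2, 260 and 146 CPM in nuclei. EZH2 was highest in G2/M, with 223, 323 and 396 CPM in cells and 175, 358 and 451 CPM in nuclei. NSD2 had similar levels in both phases, with 300, 518 and 534 CPM in cells and 313, 543 and 595 CPM in nuclei.

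**Figure D3:**
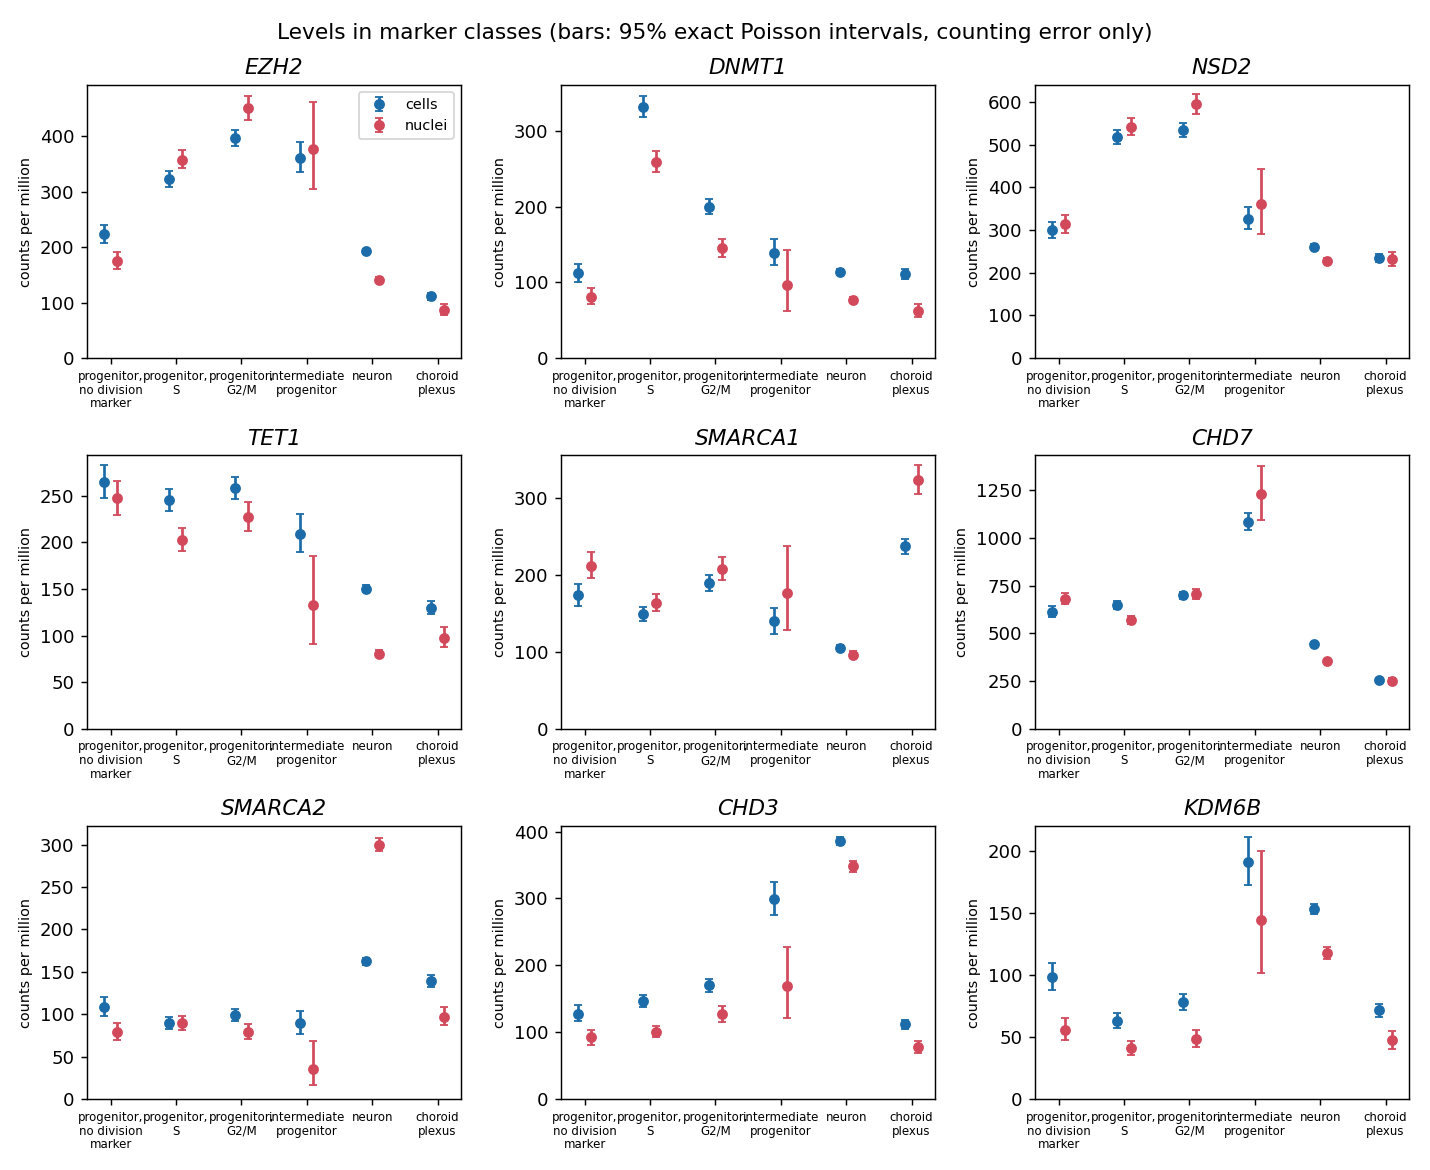
Pooled CPM of 9 members in non-dividing, S and G2/M progenitor-marker, intermediate progenitor-marker, neuron-marker and choroid plexus-marker barcodes of cells and nuclei, with 95% exact Poisson intervals. DNMT1 peaks in S phase (332 CPM in cells) and CHD7 in intermediate progenitor-marker barcodes (1086 CPM in cells and 1231 CPM in nuclei).

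When only progenitor-marker barcodes without a division marker (493 cells and 822 nuclei) were set against all neuron-marker barcodes, the ratios of DNMT1, EZH2 and NSD2 were below 1.5-fold in both libraries and those of TET1 and SMARCA1 were not. The log2 ratio of DNMT1 was then -0.025 in cells and 0.090 in nuclei, that of EZH2 0.21 and 0.30, and that of NSD2 0.20 and 0.45. TET1 (0.82 and 1.62) and SMARCA1 (0.72 and 1.14) were still past 1.5-fold in both libraries. SUZ12 lay between, at 0.53 in cells and 0.66 in nuclei. On the neuron side CHD3 (-1.59 and -1.92), CHD5 (-1.82 and -4.05) and KDM6B (-0.64 and -1.08) were past 1.5-fold, and SMARCA2 was at -0.58 in cells and -1.92 in nuclei. The 2 members higher and 3 lower in both libraries stand beside 13.2% and 10.0% of all genes tested. Few barcodes make up the non-dividing class, and the neuron-marker cells kept their own division-gene RNA in this comparison. With neuron-marker cells also limited to those without a division marker, EZH2 was at 0.32 and DNMT1 at 0.11 in cells. With the same limit in nuclei, NSD2 was past 1.5-fold again, at 0.62. The part of division in these ratios was not tested.

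**Figure D4:**
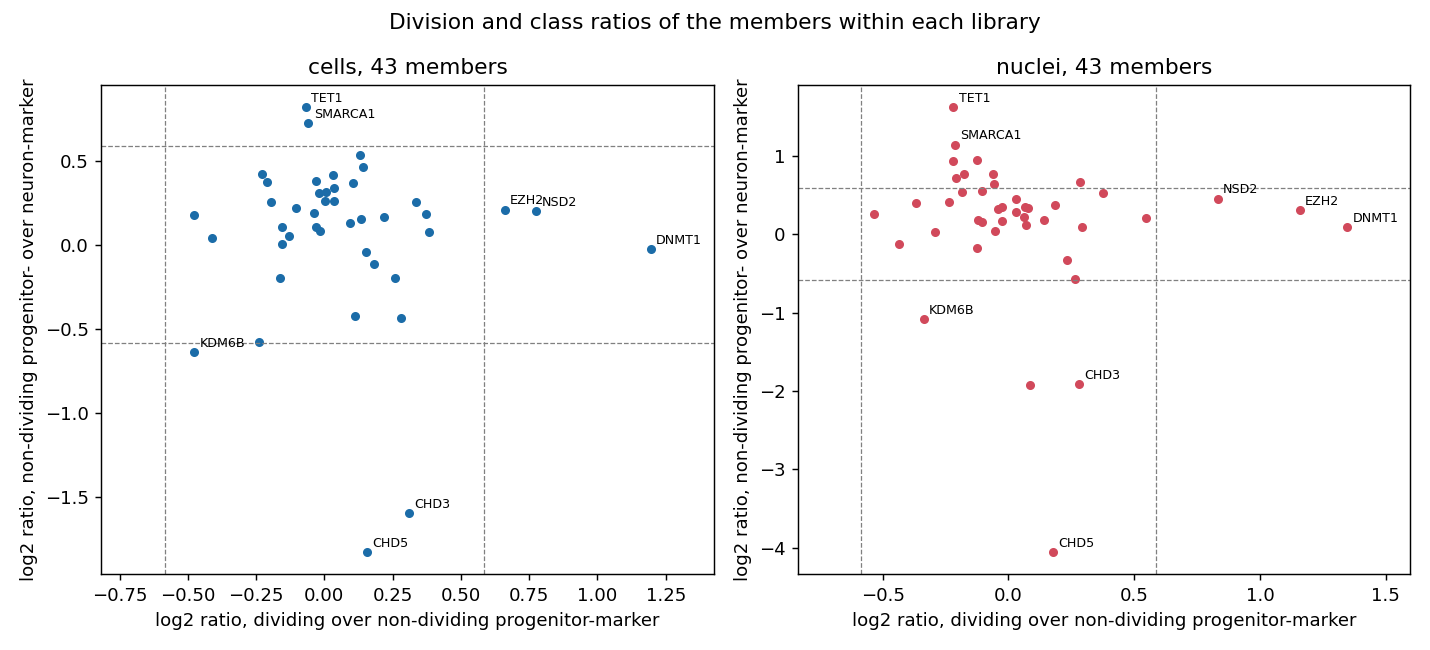
For each member, the log2 ratio of dividing over non-dividing progenitor-marker barcodes (horizontal) against that of non-dividing progenitor- over neuron-marker barcodes (vertical), in cells and nuclei, with dashed lines at 1.5-fold and names for members past a line in both libraries. Both axes share the non-dividing class, and DNMT1, EZH2 and NSD2 lie to the right while TET1 and SMARCA1 lie at the top and CHD3 and CHD5 at the bottom.

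The windows of 250 bases upstream of the start in RefSeq (GRCh38.p14) are shown for 3 members high in progenitor-marker barcodes, EZH2, NSD2 and SUZ12, and for KDM6B, high in neuron-marker barcodes, and TET1, the member with the highest ratio in nuclei. Each is written from 5′ to 3′ on the strand of the gene, and capitals mark matches to CCAAT on either strand (read as ATTGG on the reverse strand) or to the letters bound by E2F factors, TTTCCCGC, TTTGGCGC, TTTCGCGC or TTTGCCGC, which stand in promoters of many cell cycle genes. The annotation of GENCODE starts EZH2 inside its window.
EZH2, chr7:148884292-148884541, minus strand: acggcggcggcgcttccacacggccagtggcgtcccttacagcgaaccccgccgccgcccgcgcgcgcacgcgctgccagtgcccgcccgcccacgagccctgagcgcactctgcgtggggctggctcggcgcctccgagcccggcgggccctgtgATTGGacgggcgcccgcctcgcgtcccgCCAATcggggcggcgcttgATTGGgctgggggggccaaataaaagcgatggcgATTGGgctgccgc
NSD2, chr4:1871143-1871392, plus strand: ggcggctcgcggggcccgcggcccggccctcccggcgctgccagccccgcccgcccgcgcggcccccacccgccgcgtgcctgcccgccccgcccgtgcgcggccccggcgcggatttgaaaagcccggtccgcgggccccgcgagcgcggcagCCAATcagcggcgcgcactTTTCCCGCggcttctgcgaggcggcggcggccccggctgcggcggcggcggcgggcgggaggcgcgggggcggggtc
SUZ12, chr17:31936757-31937006, plus strand: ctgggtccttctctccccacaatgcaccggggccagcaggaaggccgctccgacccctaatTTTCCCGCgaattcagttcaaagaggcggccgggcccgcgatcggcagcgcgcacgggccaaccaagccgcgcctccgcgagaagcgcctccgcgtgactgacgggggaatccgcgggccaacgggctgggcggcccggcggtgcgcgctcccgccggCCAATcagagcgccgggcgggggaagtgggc
KDM6B, chr17:7833967-7834216, plus strand: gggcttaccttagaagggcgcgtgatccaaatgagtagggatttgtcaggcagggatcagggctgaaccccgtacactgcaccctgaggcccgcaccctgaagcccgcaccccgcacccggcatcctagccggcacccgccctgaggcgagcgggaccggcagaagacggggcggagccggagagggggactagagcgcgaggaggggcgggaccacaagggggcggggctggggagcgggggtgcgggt
TET1, chr10:68560087-68560336, plus strand: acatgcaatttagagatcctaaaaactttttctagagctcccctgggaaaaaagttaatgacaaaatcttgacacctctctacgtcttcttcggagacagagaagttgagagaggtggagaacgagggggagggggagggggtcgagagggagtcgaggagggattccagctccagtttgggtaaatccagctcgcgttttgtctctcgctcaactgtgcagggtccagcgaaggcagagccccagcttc
EZH2 held 4 CCAAT matches and no E2F match, NSD2 and SUZ12 held 1 of each, and neither TET1 nor KDM6B held any. The window of DNMT1, the member with the highest ratio of dividing to non-dividing barcodes, held no match to CCAAT, E2F or CHR letters, and is not printed because it lies inside the gene as GENCODE annotates it. SMARCA1, also high in progenitor-marker barcodes, held no match to any of these letters in its window, which is not printed either. The windows of 36 of the 43 members were in the table, of which 12, including those of DNMT1 and AEBP2, lay wholly inside the gene in GENCODE (23.1% of all windows). Of the 36, 4 held an E2F match (NSD2, AEBP2, SUZ12 and EZH1), beside 3.76% of the 15345 windows of all genes. Among these, AEBP2 and EZH1 were not higher in progenitor-marker cells, with log2 ratios of -0.16 and -0.12. CCAAT occurred in 9 of the 36, beside 34.8% of all windows. The cell cycle element known as CHR, searched as TTTGAA and also as TTCGAA, occurred in 3 of the 36 (NSD2, TET2 and SUZ12), beside 11.9% of all windows. A match describes these letters only and is no measurement of binding.

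Intermediate progenitors, which stand between radial glia and neurons and express EOMES, were few (308 cells and 58 nuclei with at least 2 of 8 markers). CHD7, CHD3, KDM6B and JARID2 were at least 1.5-fold higher in them than in progenitor-marker barcodes of both libraries, and DNMT1 was lower, beside 6.29% and 13.0% of all genes tested. The intermediate class also held fewer dividing barcodes. At least 2 division markers were detected in 44.5% of its cells and 22.4% of its nuclei, against 64.6% and 56.1% in the progenitor class. The part of division in the lower level of DNMT1 was not tested. CHD7 was at 1086 CPM (1040 to 1133) in intermediate progenitor-marker cells and 1231 CPM (1097 to 1377) in nuclei, 1.65- and 1.93-fold above progenitor-marker and 2.44- and 3.48-fold above neuron-marker barcodes. KDM6B was at 191 CPM in these cells and 144 CPM (36 counts) in nuclei, 2.44- and 2.92-fold above progenitor-marker barcodes. CHD3 was 1.97- and 1.62-fold and JARID2 1.53- and 1.57-fold above progenitor-marker barcodes. In cells the interval of JARID2 was 363 to 419 CPM against 254 CPM, so that its call lay within counting error of 1.5-fold. That of CHD3 was 275 to 324 CPM against 151 CPM. Counting error is larger in the 58 nuclei. Neuron markers were also higher in this class, with a sum of 5386 CPM in cells and 6060 CPM in nuclei against 1581 and 1143 CPM in progenitor-marker barcodes, and RBFOX3 (1020 and 979 CPM) was above its level in the neuron class (798 and 932 CPM). The part of neuronal RNA in these levels was not tested. Relative to neuron-marker barcodes, KDM6B was 1.25- and 1.23-fold, JARID2 1.22- and 1.16-fold and CHD3 0.775- and 0.484-fold. EZH2 was near its progenitor level, at 362 CPM in cells and 377 CPM in nuclei. In intermediate progenitor-marker cells SMARCA2 was at 89.5 CPM (176 counts), 0.888-fold its progenitor level. It had 9 counts in the nuclei of this class (36.1 CPM, 16.5 to 68.5). Levels of these classes are a description, since markers of each barcode chose its class and no sample was repeated.

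The other chromatin genes of the same complexes and enzyme families (80 genes, of which 78 passed 5 CPM) were counted in the same way. In both libraries 11 were at least 1.5-fold higher in progenitor-marker barcodes and 4 in neuron-marker barcodes (14.1% and 5.13%), beside 14.4% and 10.7% of all genes tested. In cells 12 were higher and 6 lower (15.4% and 7.69%), beside 15.0% and 12.0% of all genes, and in nuclei 18 and 4 (23.1% and 5.13%), beside 25.1% and 16.1%. Relative to the median gene these counts were 9 and 6 in cells, beside 13.9% and 13.1% of all genes, and 12 and 8 in nuclei, beside 19.6% and 20.3%. The neuron-side genes included ACTL6B, DPF1 and DPF3, the subunits known to enter BAF in neurons, and PHC2 of Polycomb repressive complex 1. ACTL6B was at 5.81 CPM (139 counts) in progenitor-marker and 31.1 CPM in neuron-marker cells (log2 ratio -2.42), and at 0.909 CPM (15 counts) and 32.5 CPM in nuclei (-5.16). Its progenitor level in nuclei was below the minimum of 5 CPM, which it passed only over all kept barcodes. DPF3 had log2 ratios of -1.78 and -2.47, and DPF1 of -0.60 and -1.09. DPF1 was also higher in dividing than in non-dividing progenitor-marker barcodes, by 1.64 in cells and 1.22 in nuclei on the log2 scale. Of their progenitor counterparts, PHF10 was 1.94-fold higher in progenitor-marker cells and 2.03-fold in nuclei, whereas ACTL6A (0.39 and 0.68) passed 1.5-fold in nuclei only, and not relative to the median gene there (0.50). SS18, whose paralog SS18L1 is the neuronal form, also passed 1.5-fold in nuclei only (0.49 and 0.81), and SS18L1 was at -0.12 and 0.058.

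The other Polycomb genes higher in progenitor-marker barcodes were RBBP7 (log2 ratio 0.90 in cells and 1.13 in nuclei), PHF19 (1.45 and 2.13), RING1 (0.89 and 0.66), PCGF5 (0.60 and 1.35) and CBX2 (1.01 and 1.33). Relative to the median gene, PCGF5 in cells (0.55) and RING1 in nuclei (0.49) were below 1.5-fold. PHF19 and CBX2 were also higher in dividing than in non-dividing progenitor-marker barcodes of both libraries, by 1.70 and 0.91 in cells on the log2 scale. With DPF1, DNMT3B and CTCF they made 5 of the 78 genes higher by this measure, and 0 were lower, beside 4.70% and 3.36% of all genes tested. DNMT3B was also at least 1.5-fold lower in non-dividing progenitor-marker than in neuron-marker barcodes of both libraries. The remaining progenitor-side genes were the BAF subunit BCL7C (0.62 and 0.68, and 0.58 and 0.50 relative to the median gene), the NuRD deacetylase HDAC1 (0.75 and 1.19), the H3K9 methyltransferase SUV39H2 (0.80 and 1.13) and the acetyltransferases KAT2A (1.08 and 1.43) and KAT2B (1.16 and 1.57). KAT2B was higher in all 30 and all 12 wells.

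The 43 genes lie on many chromosomes (GENCODE v44, GRCh38), with EZH2 at chr7:148807257-148884321, NSD2 at chr4:1871393-1982207, DNMT1 at chr19:10133342-10231286 and CHD5 at chr1:6101787-6180321. Gene length ran from 20.6 kb for KDM6B to 454.8 kb for KDM4C. A gene on the opposite strand overlapped 37 of the 43, and the sources used here do not state whether counting used the strand, so that reads of these partners cannot be told apart. Genes on the same strand overlapped many members too, and counting by strand would not separate those. CHD5, NSD2 and TET1 had overlaps of this kind alone. Among the 10 members past 1.5-fold in both libraries, an annotated protein-coding gene overlapped CHD3 (NAA38), CHD5 (ENSG00000285629) and DNMT1 (S1PR2).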

How the data were processed

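The matrices deposited by the authors hold unfiltered transcript counts for each barcode and gene, with no scaling. Per the methods, reads were demultiplexed into 8 sub-libraries of cells and 2 of nuclei with 1 mismatch allowed, and each was mapped to GRCh38 by the pipeline of Parse Biosciences. The deposited metadata name 1 sample per library, so no comparison of organoids was made and no p-value is given.

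Kept barcodes held 157306492 transcripts in cells and 72162726 in nuclei, so that intervals of the levels are narrow except for CHD5 and for the intermediate progenitor class. Classes were called on barcodes thinned without replacement (seed 0), with 11 choroid plexus and 8 intermediate progenitor markers set apart first (at least 3 and at least 2 detected), and 22 S phase and 25 G2/M markers for division. Levels are pooled counts per 1000000 counts of a class (CPM), and 1.5-fold was the call. Genes at 5 CPM or more over all kept barcodes were tested. The minimum was not applied per class, so a gene high in 1 class could pass while below 5 CPM in another. No doublet caller was run. As an alternative, the deepest 5% of cells and 3% of nuclei were left out. The members, lists and markers were chosen with earlier results of these data known. Values are given in full for members past 1.5-fold in the same direction in both libraries and for 8 sets of paralogs. Counting and calling were run on simulated data. The simulated barcodes held markers of a single set and no free RNA, so they cannot show how well classes were called here. Scripts used scipy 1.17.1 (Poisson intervals), pandas 2.3.3, numpy 2.4.6, matplotlib 3.10.9 and Python 3.11.15.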

Additional observations from a re-analysis of the deposited data

Results flagged for a closer look

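EZH1, ARID1B, CHD8 and TET2 had log2 ratios of progenitor- over neuron-marker barcodes of opposite sign in the libraries, each of which is 1 sample. EZH1 was at -0.12 in cells and 0.063 in nuclei, ARID1B at 0.011 and -0.0040, CHD8 at -0.047 and 0.11, and TET2 at -0.0078 and 0.12. None reached 1.5-fold in either library, and the sub-libraries of cells fell on both sides of 0 for all 4 genes (2, 5, 2 and 4 of 8 above 0). Centering on the median gene, which was at 0.17 in nuclei, put the nuclei of EZH1, CHD8 and TET2 below 0 as well. The differences between the libraries were not tested.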

How the results depend on the processing

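With no division marker in progenitor-marker barcodes, 2 members instead of 6 were higher in progenitor-marker cells (16.1% of all genes, from 15.0%). In nuclei 9 members instead of 12 were then higher (25.5% of all genes, from 25.1%). The ratio of DNMT1 in cells turned to -0.025. The median ratios were 0.19 in cells and 0.18 in nuclei for Polycomb, 0.075 and 0.091 for BAF, and 0.55 in nuclei for CHD. Leaving out division markers in either class was an alternative chosen after seeing the data. With it 3 members were higher in cells (20.0% of all genes) and 13 in nuclei (29.4%). The medians were then 0.25 and 0.19 (Polycomb), 0.048 and 0.12 (BAF) and 0.60 in nuclei (CHD). A 2-fold call left 0 members higher in progenitor-marker cells (7.33% of all genes) and 2 higher in neuron-marker cells (5.85%). It left 4 higher in progenitor-marker nuclei (14.6%) and 1 higher in dividing cells (2.82%). Of members lower in dividing barcodes, 1 instead of 0 was found in cells with equal weight per barcode or without the deepest barcodes. In nuclei 1 was found with another thinning seed or without 1 sub-library. In the main setting 8.56% of all genes were lower in cells and 10.6% in nuclei. Shares of all genes under these alternatives are not given, and no reading of the members is drawn from a count of 1.

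The medians over wells in cells were 0.15 (Polycomb) and 0.17 (BAF), and 0.26 for Polycomb in nuclei. Leaving out the deepest barcodes gave 0.29 for BAF in cells. In nuclei, centering on the median gene gave 0.15 (Polycomb), 0.10 (BAF) and 0.31 (CHD), equal weight per barcode 0.23 (Polycomb) and 0.45 (CHD), and barcodes above 5000 transcripts 0.46 and 0.53. At least 2 markers and 2 times gave 0.22 for CHD in cells, and 0.28 (Polycomb) and 0.39 (CHD) in nuclei. At least 4 markers gave 0.54, marker transcripts 0.42 and another seed 0.41 for CHD in nuclei. Why these medians moved was not tested. All 10 ratios past 1.5-fold in both libraries kept their direction under all other alternatives. Besides SUZ12 and SMARCA2, the calls of EZH2 in cells (0.56 with equal weight per barcode, 0.58 with 2 markers) and SMARCA1 in cells (0.56 as the median of wells) were lost, as were those of EZH2 and DNMT1 in both libraries and of NSD2 in cells without division-marker barcodes, and of NSD2 in nuclei (0.45) without them in progenitors alone. A minimum level over all kept barcodes changed no member, since all 43 passed it. No paired analysis was possible because the labels give no replicate shared between the libraries and no result came from a test, and the ratios within wells, which compare classes of the same well, are given as values. Depth limits CHD5 and the 58 intermediate progenitor-marker nuclei.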

Other observations

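Choroid plexus-marker barcodes (1143 cells and 423 nuclei) are described for 3 members chosen after their values were seen. SMARCA1 was higher there than in any other class described, at 237 CPM in cells and 323 CPM in nuclei, against 167 and 189 CPM in progenitor-marker barcodes. EZH2 was at 112 and 87.3 CPM, below its level in neuron-marker barcodes (193 and 142 CPM), and CHD7 was at 254 and 251 CPM, against 446 and 354 CPM.

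Levels in cells and nuclei were set side by side within each class. In the progenitor class 40 of 43 members (93%) were within 1.5-fold, beside 74.6% of all 12663 genes, and CHD4, CHD5 and KDM6B were lower in nuclei. In the neuron class 35 (81.4%) were within 1.5-fold, beside 67% of all genes, with SMARCA2 and CHD5 higher and EED, SMARCA5, CHD1, CHD4, CREBBP and TET1 lower in nuclei. Across genes, which are not independent replicates, the log2 ratio of nuclei to cells had a Spearman rho with gene length of 0.50 over the 43 members and 0.32 over 12660 genes in the progenitor class, and of 0.40 and 0.38 in the neuron class.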
